A study of Homo sapiens with 24 samples.

Results

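Collagen genes were taken as the gene symbols made of COL, a number, A and a number, which gave 44 of the 26475 symbols in the count table. They were grouped as 11 fibrillar collagens, 6 type IV collagens of basement membranes, and 27 collagens of other types. RNA was sequenced from 3 single-cell clones of HK2, an immortalised line of human proximal tubule epithelium, to see what follows when VHL is lost. All 3 clones carried a VHL transgene that is expressed only in doxycycline (dox). In WT8 the endogenous VHL gene was intact, and in MUT10 and MUT35 it had been knocked out with CRISPR-Cas9. Each clone was sequenced with dox (transgene on) and after dox withdrawal (transgene off), in 4 replicates per state and 24 libraries in all, so that by design withdrawal left VHL from the endogenous gene in WT8 and none in MUT10 and MUT35. The series' own design text instead lists WT8 off dox with the knockouts. The study's methods name WT8 beside MUT10 and MUT35 as clones with VHL mutation, while its results section calls endogenous VHL intact in WT8. WT8 is taken here as the results section describes it. Each genotype thus rests on 1 or 2 clones, and the knockout and the identity of the clone cannot be told apart. The labels do not say that replicates were separate cultures, so p-values measure the spread between these libraries, which may be technical.

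Collagens are secreted proteins built from 3 chains wound into a triple helix. Fibrillar collagens assemble into the banded fibrils of connective tissue, type IV collagens form the network of basement membranes such as the one under the kidney tubule, and the remaining types decorate fibrils, anchor epithelia to the stroma or build short networks of their own. Chains are hydroxylated on proline and lysine in the endoplasmic reticulum, are exported as procollagens, and are trimmed and cross-linked outside the cell. VHL is the substrate receptor of a ubiquitin ligase that marks the HIF alpha transcription factors for destruction.

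The library totals ran from 5206663 to 18196003 counts, and 3 counts, the floor used here for a gene that is not seen, were worth 0.164 to 0.569 counts scaled to library size (CPM). VHL was at 199 to 235 CPM in WT8 with dox, at 369 to 400.4 in MUT10 and at 192 to 267 in MUT35, so its level with dox was highest in MUT10. After withdrawal it was at 26.1 to 32.7 CPM in WT8, 26.98 to 34.1 in MUT10 and 17.8 to 18.6 in MUT35, so the level of VHL RNA checks the dox labels but does not separate the MUT10 knockout from WT8. Markers of renal epithelium summed to 894 to 1724 CPM, with PAX8, KRT18, CDH2 and EPCAM detected and LRP2, AQP1, CUBN and ANPEP at or near 0. Lung epithelium markers, looked at because the labels name lung as the tissue, summed to at most 2.62 CPM and endothelial markers to at most 1.08 CPM. Fibroblast and stroma markers, the cells that make most fibrillar collagen in tissue, summed to 83.4 to 110.2 CPM in WT8, 25.7 to 42.0 in MUT10 and 42.7 to 55.3 in MUT35. Nearly all of this was LUM (20.9 to 108 CPM), whereas PDGFRA reached no more than 0.108 CPM and FAP and POSTN were near 0. The libraries also differed in how CPM varied with the GC content of the transcript, and the slope went with dox. It ran from -0.347 to -0.0275 log2 units per 10 percentage points of GC in dox, against -0.0111 to 0.400 after withdrawal. The MUT10 libraries of dox on replicate 2 (-0.0275) and dox off replicate 4 (-0.0111) lay between the others. Dox and the preparation of the libraries cannot be told apart, so each result is also given with the GC trend of every library removed where that changes it.

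Of the 44 collagen genes, 17 passed the filter on low counts and were tested, namely 4 fibrillar, 3 type IV and 10 of other types. Another 22 had counts but at most 15 in any library, and 5 (COL1A2, COL6A5, COL13A1, COL23A1 and COL25A1) had no count in any library. Among the untested genes, COL17A1 and COL9A2 reached 15 counts, COL5A2 14 and COL24A1 13. COL8A2 passed the filter through MUT10 and COL11A1 through MUT35, so a difference between clones in these genes was needed for them to be tested at all.

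COL4A1 stood highest in the mean over all libraries. Per kilobase of transcript, which allows levels of different genes to be compared, the mean over the 24 libraries was 49.4 CPM for COL4A1 and 31.6 for COL4A2, the chains of the widespread basement membrane trimer. Between them lay COL6A1 (33.7 CPM per kilobase), and COL6A2 followed at 21.4, both chains of the beaded microfibrils of type VI collagen. In MUT10 after withdrawal the type VI chains stood higher, at means of 50.5 (COL6A1) and 33.4 (COL6A2), against 24.2 (COL4A1) and 22.5 (COL4A2). COL8A1 (11.1), COL18A1 (8.92), COL5A1 (6.76) and COL27A1 (5.61) came next. The other 9 tested genes averaged 2.79 CPM per kilobase (COL7A1) or less, down to 0.153 for COL11A1. COL4A1 and COL4A2 together made up 61.9 to 65.2% of the collagen CPM of the WT8 libraries with dox and 49 to 51.3% after withdrawal. Their share was 47.3 to 52.0% and 31.0 to 37.5% in MUT10, and 59.5 to 60.4% and 48.0 to 50.3% in MUT35. The share was lower after withdrawal in each clone without overlap of the libraries, while the summed collagen CPM was higher in the deposited counts. It went from 1128 to 1206 in WT8 with dox to 1256 to 1297 after withdrawal, from 652 to 745 to 813 to 1023 in MUT10, and from 909.7 to 980.2 to 1105 to 1189.7 in MUT35. Over the 17 tested genes with the GC trend removed, the share was still lower after withdrawal in each clone without overlap, but the sum turned. It was then at 1276 to 1438 CPM with dox and 1017 to 1117 after withdrawal in WT8, at 758.1 to 864.3 and 720.7 to 821.5 in MUT10, and at 1054 to 1119 and 946.7 to 1038 in MUT35, lower after withdrawal without overlap in WT8 and MUT35 and overlapping in MUT10. In bulk RNA, fewer cells that express a gene and less RNA per cell cannot be told apart.

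**Figure D1:**
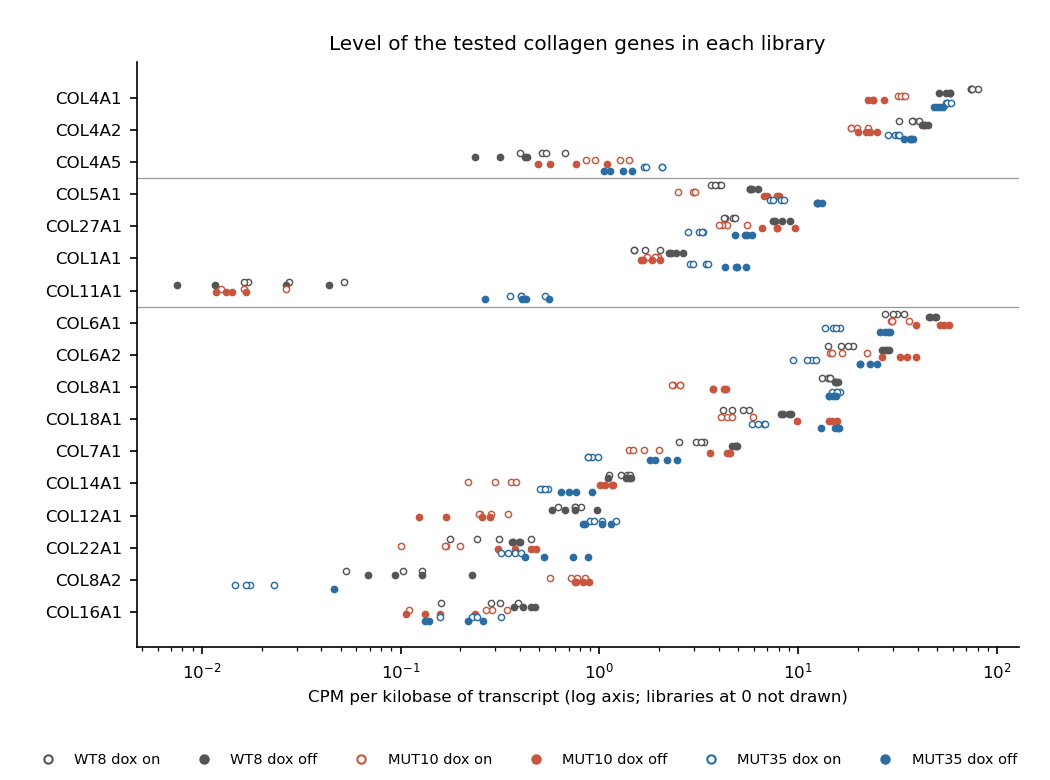
CPM per kilobase of transcript (horizontal axis, log scale) of the 17 tested collagen genes in each of the 24 libraries, grouped from top to bottom as type IV, fibrillar and other collagens. Open points are libraries with dox and filled points libraries after withdrawal. COL4A1 has the highest mean over all libraries, but COL6A1 lies above it in MUT10 after withdrawal. COL8A1 and COL12A1 lie lower in MUT10 than in the other clones, and COL11A1 is high in MUT35 alone.

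Partner chains of several trimers were low or missing. COL1A1 had 53 to 296 counts per library, while COL1A2, which completes the usual type I trimer, had none. COL5A1 had 178 to 1033 counts, against 1 to 14 for COL5A2 and 0 or 1 for COL5A3. COL6A1 (584 to 3537 counts) and COL6A2 (256 to 1727) were abundant, but COL6A3, the chain that completes the type VI monomer, had 0 to 4. COL4A5, a chain of the type IV networks of the glomerulus and of smooth muscle basement membranes, had 16 to 165 counts, against 0 to 3 for COL4A3, 0 to 4 for COL4A4 and 0 or 1 for COL4A6. At this depth these partners, other than COL5A2, were not detectable above the floor or lay close to it. COL5A2 had a count in all 24 libraries, with a mean of 1.21 CPM in WT8 with dox.

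Dox withdrawal raised 9 or 10 of the 17 tested collagen genes in each clone in the deposited counts, and 2, 8 and 6 of them in WT8, MUT10 and MUT35 with the GC trend removed. In WT8, 9 of 17 rose and 1 fell by edgeR's quasi-likelihood test (Benjamini-Hochberg adjusted p under 0.05), where 29.5% of all genes rose and 29.8% fell, together 59.3%. After removal of the GC trend, 2 rose and 2 fell, against 21.2% and 19.1% of all genes (together 40.4%). In MUT10, 10 rose and 2 fell, against 33.8% and 32.3% of all genes (together 66.1%), and with the GC trend removed 8 rose and 5 fell, against 30.3% and 30.9% (together 61.2%). In MUT35, 10 rose and 2 fell, against 32% and 31.3% of all genes (together 63.2%), and with the GC trend removed 6 rose and 4 fell, against 27.7% and 25.7% (together 53.5%). In the mean of both knockout clones 11 rose and 2 fell, against 38.1% and 35.5% of all genes (together 73.6%), and 9 and 5 with the GC trend removed, against 34.2% and 33% (together 67.2%). In the deposited counts, the share of collagen genes called lay near that of all genes in each clone. The median log2 fold change was 0.53 in WT8 over the 17 genes, against 0.0066 over all genes, and -0.010 against 0.018 with the GC trend removed. Called higher in all 3 clones were COL18A1, COL27A1, COL4A2, COL5A1, COL6A1, COL6A2 and COL7A1, and called lower in all 3 was COL4A1. On removal of the GC trend, COL27A1 was called higher in all 3 clones and COL4A1 and COL4A2 lower, so the direction of COL4A2 turned. COL7A1, COL18A1 and COL6A2 then differed from 0 in MUT10 and MUT35 and were not called in WT8.

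**Figure D2:**
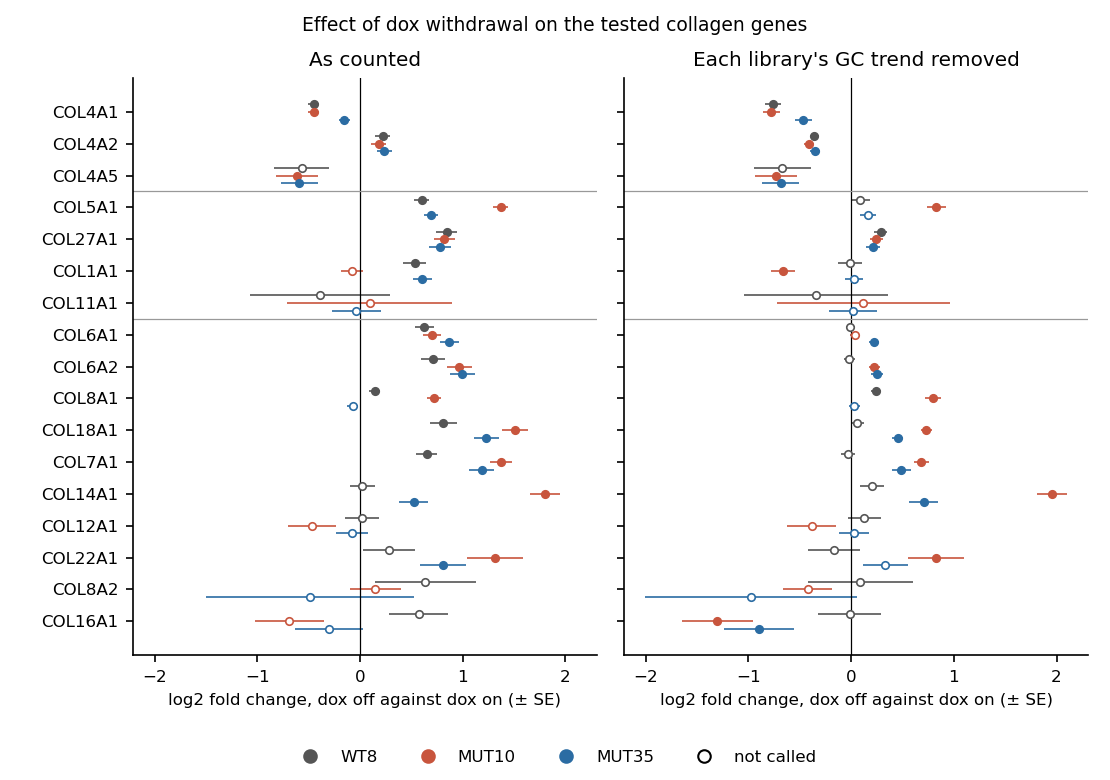
Log2 fold change of dox off against dox on (horizontal axes, bars are standard errors) of the 17 tested collagen genes in WT8, MUT10 and MUT35, in the counts as deposited (left) and with the GC trend of each library removed (right). Filled points were called at an adjusted p under 0.05. On the left 9 genes are called higher in WT8, and on the right 2 are, while COL14A1, COL7A1, COL18A1 and COL5A1 stay higher in MUT10 on both sides.

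Transcripts of the tested collagen genes are rich in GC, at 44.7 to 67.2% with a median of 61.3%, against a median of 47.9% over all tested genes. In WT8 their log2 fold changes rose with GC content, with Spearman's rho of 0.777 over the 17 genes and 0.747 over all genes. These genes share the same 8 libraries, so the correlation is a description. On removal of the GC trend, rho over the 17 genes was -0.174. The order was looser in the knockout clones, where rho over the 17 genes was 0.213 in MUT10 and 0.554 in MUT35, against 0.576 and 0.657 over all genes. For the withdrawal effect of MUT10 and MUT35 minus that of WT8, rho was -0.0319 over the 17 genes and 0.0117 over all genes.

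**Figure D3:**
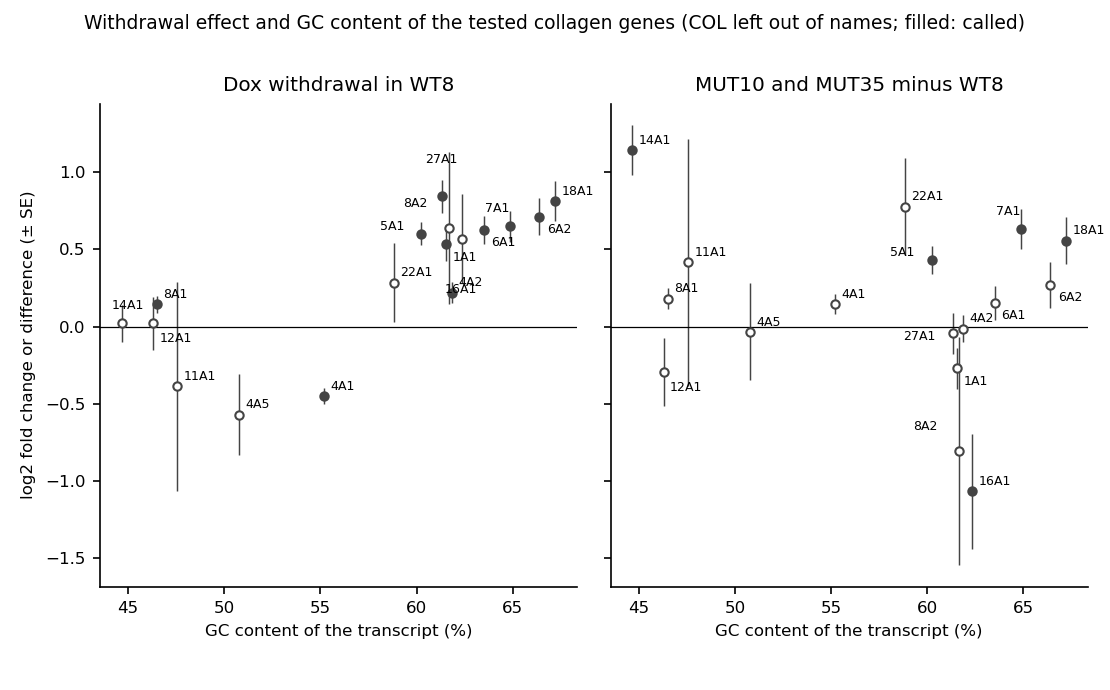
Log2 fold change of dox withdrawal in WT8 (left) and the withdrawal effect of MUT10 and MUT35 minus that of WT8 (right), in log2 units with standard errors, against the GC content of the transcript in percent for the 17 tested collagen genes, named without COL. Filled points were called. On the left the genes above 60% GC lie above 0 (rho 0.777), and on the right no such order is seen (rho -0.0319).

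The comparison that takes off the response of WT8 to withdrawal is the withdrawal effect of MUT10 and MUT35 minus that of WT8. With 1 control clone, VHL loss and a response to withdrawal particular to a clone cannot be told apart in it. In this comparison, 5 of 17 collagen genes were called, 4 higher and 1 lower, against 12.1% and 11.4% of all genes (together 23.5%). COL14A1, COL7A1, COL18A1 and COL5A1 rose more in the knockout clones. COL16A1 was lower after withdrawal in the knockout clones and higher in WT8 by group means, and its call was lost in 13 of 24 fits that left out 1 library. Once the GC trend was removed, 6 were called, the same 5 and COL6A2, of which 5 were higher and 1 lower, against 15.8% and 18% of all genes (together 33.8%). The median difference over the 17 genes was 0.16 log2 units, against 0.0065 over all genes. Between the knockout clones, the withdrawal effect of MUT10 was called above that of MUT35 in 3 collagen genes and below it in 2, against 6.7% and 4.41% of all genes (together 11.1%).

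Among the fibrillar collagens, COL5A1 (ENSG00000130635, chromosome 9, 134641803 to 134844843, GRCh38) encodes a chain of type V collagen, which sits inside type I fibrils and limits their width. In WT8, COL5A1 was at 33.8, 34.4, 30.6 and 32.3 CPM in dox on replicates 1 to 4 and at 49.2, 52.8, 48.2 and 48.6 CPM after withdrawal. In MUT10, COL5A1 was at 25.1, 24.9, 21.0 and 25.7 CPM with dox and at 67.9, 66.4, 58.7 and 57.0 CPM after withdrawal. In MUT35, COL5A1 was at 60.7, 62.8, 69.2 and 71.7 CPM with dox and at 111, 107, 105 and 105 CPM after withdrawal. Every clone was higher after withdrawal without overlap, MUT10 started lowest and MUT35 stood highest in both states. COL5A1 rose 2.58-fold in MUT10, 1.62-fold in MUT35 and 1.52-fold in WT8, and the rise in the knockout clones exceeded that in WT8 by a log2 difference of 0.43 (SE 0.09, adjusted p = 0.000743). With the GC trend removed the difference was 0.41 (SE 0.11, adjusted p = 0.00495), but the rises themselves were no longer called in WT8 (0.09, adjusted p = 0.473) or in MUT35 (0.16, adjusted p = 0.0732), and that in MUT10 was 0.83. The difference rested on MUT10, where it was 0.77 against WT8 (adjusted p = 2.71e-06), while MUT35 alone gave 0.09 (adjusted p = 0.655). MUT10 differed from MUT35 by 0.68 (SE 0.10, adjusted p = 2.65e-05).

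COL1A1, the main chain of type I collagen in bone and skin, separated the clones. In WT8, COL1A1 averaged 9.91 ± 1.47 CPM (SD, n = 4) in dox, against 14.2 ± 1.00 CPM after withdrawal. It was at 11.1 ± 0.577 and 10.6 ± 1.10 CPM in MUT10, and at 18.9 ± 1.95 and 28.9 ± 2.79 CPM in MUT35. WT8 and MUT35 were higher after withdrawal without overlap, and the MUT10 states overlapped. MUT10 and MUT35 differed in the withdrawal effect by -0.68 (SE 0.14, adjusted p = 0.00182), and -0.69 with the GC trend removed. The WT8 effect of 0.53 went to -0.01 with the GC trend removed, the MUT35 effect of 0.61 to 0.03 (adjusted p = 0.819), and MUT10 was then called lower, at -0.66 (adjusted p = 7.17e-06). The mean effect of the knockout clones, 0.26, turned to -0.32. COL27A1, a cartilage fibrillar collagen, rose by 0.84 in WT8, 0.82 in MUT10 and 0.78 in MUT35 on the log2 scale, and by 0.29, 0.24 and 0.21 with the GC trend removed. No difference in its withdrawal effect was called between the knockout clones and WT8 (-0.04, SE 0.13, adjusted p = 0.858).

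COL11A1, a chain of the cartilage collagen type XI, was nearly silent outside MUT35. Its 4 libraries held 24, 43, 36 and 50 counts in MUT35 with dox and 38, 25, 29 and 18 after withdrawal, against 0 to 3 counts in every library of WT8 and MUT10. The MUT35 libraries lay above all others in both states. Summed over libraries, MUT35 with dox had 153 counts and WT8 had 6, a ratio of CPM of 16.5 (exact 95% interval 7.42 to 45.7, counting error only). After withdrawal the counts were 110 and 7 and the ratio was 21.6 (10.1 to 54.9). As COL11A1 passed the filter through MUT35, these intervals describe the difference and do not test it.

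COL4A1 (ENSG00000187498, chromosome 13, 110148963 to 110307157) and COL4A2 (ENSG00000134871, chromosome 13, 110305812 to 110513209) encode the chains of the most widespread basement membrane collagen and are transcribed away from each other on opposite strands. Their annotated spans overlap at their starts, and the strand setting of the counting is not given in the sources used here. The RefSeq start sites on GRCh38.p14 lie at 110307157 (COL4A1) and 110307284 (COL4A2). The 126 bases between them are shown because both genes start on either side of this stretch while their RNA changed unequally. They hold neither ACGTG nor GCGTG on either strand, the core letters of hypoxia response elements. The 250 bases before the start of COL4A2 (110307034 to 110307283), which include this stretch, hold 1 match that does not lie within it.
COL4A1-COL4A2, chr13:110307158-110307283, plus strand: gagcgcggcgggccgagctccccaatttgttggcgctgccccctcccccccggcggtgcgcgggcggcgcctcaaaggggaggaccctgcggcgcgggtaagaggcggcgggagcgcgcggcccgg

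In WT8, COL4A1 was at 527, 484, 486 and 490.1 CPM with dox and at 336, 364, 378 and 377 CPM after withdrawal. In MUT10, COL4A1 was at 219, 207, 214 and 227 CPM with dox and at 156, 156, 146 and 176 CPM after withdrawal. In MUT35, COL4A1 was at 366, 361, 367 and 385 CPM with dox and at 350.2, 327, 337 and 317 CPM after withdrawal. COL4A1 fell in each clone without overlap, and MUT10 held the lowest level in both states. The log2 fold change was -0.45 in WT8 (SE 0.05, adjusted p = 4.99e-07), -0.45 in MUT10 (SE 0.06, adjusted p = 9.46e-08) and -0.15 in MUT35 (SE 0.05, adjusted p = 0.0163). The MUT35 call was lost without MUT35 dox on replicate 4 (adjusted p = 0.0538) or dox off replicate 4 (0.0589). After GC correction the falls were deeper, at -0.76, -0.78 and -0.46.

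In WT8, COL4A2 was at 208, 262, 242 and 242 CPM with dox and at 279.7, 275, 271 and 288 CPM after withdrawal. In MUT10, COL4A2 was at 119, 145, 128 and 119 CPM with dox and at 161, 142, 148 and 129 CPM after withdrawal. In MUT35, COL4A2 was at 198, 206, 182 and 207 CPM with dox and at 237, 234, 219 and 243 CPM after withdrawal. WT8 and MUT35 were higher after withdrawal without overlap and the MUT10 states overlapped. The log2 fold changes of COL4A2 were 0.22, 0.18 and 0.24 in WT8, MUT10 and MUT35, and with the GC trend removed they turned to -0.36, -0.41 and -0.35, each called. Without WT8 dox on replicate 1 the WT8 rise was not called (adjusted p = 0.0537). The MUT10 rise (adjusted p = 0.0304) was lost without any 1 of 7 libraries, namely dox on replicates 1, 3 and 4 and dox off replicates 1 and 3 of MUT10 and dox on replicates 1 and 3 of MUT35, up to adjusted p = 0.137, as well as with library size alone (0.113), without a filter (0.0793) and with MUT10 fitted alone (0.0880). Neither COL4A1 (0.15, adjusted p = 0.112) nor COL4A2 (-0.01, adjusted p = 0.949) was called for a difference in withdrawal effect between the knockout clones and WT8.

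The ratio of COL4A1 to COL4A2 fell on withdrawal in each clone. Per kilobase it was 1.82 to 2.497 with dox and 1.18 to 1.38 after withdrawal in WT8. In MUT10 it was 1.40 to 1.88 with dox and 0.957 to 1.34 after withdrawal, and in MUT35 1.73 to 1.99 and 1.29 to 1.51. The states did not overlap in any clone. The mean log2 ratio changed by -0.68 in WT8, -0.64 in MUT10 and -0.39 in MUT35 (2-sided exact permutation test over libraries, p = 0.0286 in each, the smallest that 4 against 4 allows, and 0.0286 adjusted over 3 tests). The transcripts differ in GC content, 55.2% in COL4A1 and 61.8% in COL4A2, and with the GC trend removed the changes were -0.40, -0.37 and -0.11. The other abundant pair of chains, COL6A1 and COL6A2, changed its log2 ratio by -0.09, -0.29 and -0.13 (exact permutation p = 0.0571, 0.0286 and 0.143, adjusted p = 0.0857, 0.0857 and 0.143).

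**Figure D4:**
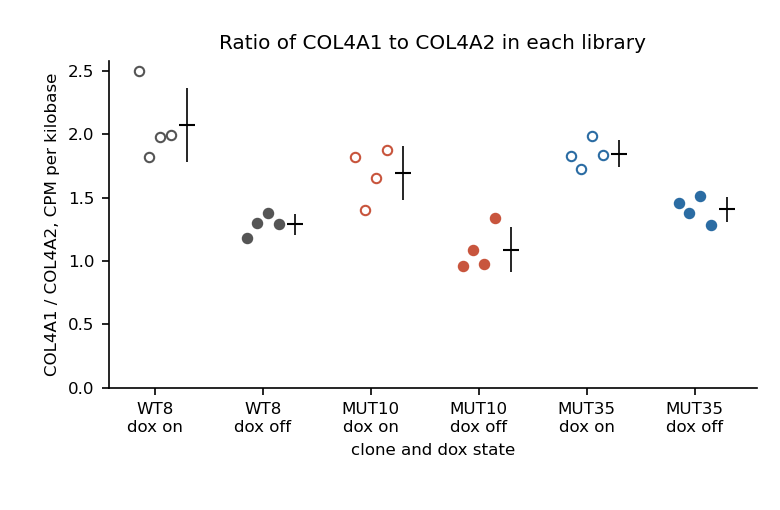
Ratio of COL4A1 to COL4A2 in CPM per kilobase of transcript (vertical axis, from 0) for the clones with and without dox (horizontal axis). Each point is a library, and the bars give the mean and SD of a group of 4. The ratio lies at 1.40 to 2.497 with dox and at 0.957 to 1.51 after withdrawal, lower after withdrawal within each clone, and with the GC trend removed the changes were smaller.

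COL4A5 (ENSG00000188153, chromosome X, 108439838 to 108697545) encodes the type IV chain whose loss causes X-linked Alport kidney disease. In WT8, COL4A5 was at 4.36, 2.61, 3.35 and 3.51 CPM with dox and at 1.56, 2.76, 2.08 and 2.83 CPM after withdrawal. In MUT10, COL4A5 was at 8.26, 6.24, 5.62 and 9.24 CPM with dox and at 3.20, 4.99, 3.67 and 7.15 CPM after withdrawal. In MUT35, COL4A5 was at 13.5, 10.9, 13.6 and 11.2 CPM with dox and at 9.58, 6.93, 7.37 and 8.60 CPM after withdrawal. The knockout clones lay above WT8 in both states without overlap, and MUT35 was lower after withdrawal without overlap. The knockout clones exceeded WT8 2.79-fold with dox (log2 1.48, SE 0.20, adjusted p = 9.69e-07) and 2.73-fold after withdrawal (1.45, SE 0.21, adjusted p = 1.18e-06), so the excess was there while the transgene supplied VHL. Withdrawal changed COL4A5 by -0.57 in WT8 (adjusted p = 0.0670, not called), -0.61 in MUT10 and -0.59 in MUT35. The MUT10 call was lost without MUT10 dox on replicate 4 (adjusted p = 0.0672) or dox off replicate 1 (0.0531), and with MUT10 fitted alone (0.0509). The WT8 fall was called in 3 fits that left out 1 library and with WT8 fitted alone (0.0437). It was also called with the GC trend removed and the replicate block added (0.0461).

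COL14A1 (ENSG00000187955, chromosome 8, 120059780 to 120373573) encodes a collagen that binds to the surface of fibrils. Among the collagen genes called for the difference in withdrawal effect between the knockout clones and WT8, its difference was the largest. In WT8, COL14A1 was at 8.92, 10.3, 11 and 11.4 CPM with dox and at 11.6, 8.81, 11.3 and 10.9 CPM after withdrawal. In MUT10, COL14A1 was at 2.87, 2.39, 1.74 and 3.05 CPM with dox and at 8.58, 9.38, 8.07 and 9.27 CPM after withdrawal. In MUT35, COL14A1 was at 4.10, 4.40, 4.02 and 4.28 CPM with dox and at 7.32, 5.14, 5.63 and 6.13 CPM after withdrawal. Both knockout clones lay below WT8 with dox and rose on withdrawal without overlap, to means of 8.83 and 6.06 CPM against 10.6 in WT8, while the WT8 states overlapped. The log2 fold change was 1.80 in MUT10 (SE 0.15, adjusted p = 8.90e-11), 0.53 in MUT35 (SE 0.14, adjusted p = 0.00232) and 0.02 in WT8 (SE 0.12, adjusted p = 0.891). The knockout clones together differed from WT8 by 1.14 (SE 0.16, adjusted p = 4.68e-06), and by 1.13 with the GC trend removed. Taken alone, MUT10 differed from WT8 by 1.78 (adjusted p = 5.82e-08) and MUT35 by 0.50 (adjusted p = 0.0848, not called), and MUT10 differed from MUT35 by 1.28 (SE 0.21, adjusted p = 8.96e-05).

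COL7A1 (ENSG00000114270, chromosome 3, 48564073 to 48595329) encodes the collagen of the anchoring fibrils that fasten epithelial basement membranes to the stroma. In WT8, COL7A1 was at 23.1, 31.0, 28.3 and 29.9 CPM with dox and at 44.5, 42.7, 44.8 and 45.5 CPM after withdrawal. In MUT10, COL7A1 was at 13.1, 18.4, 15.4 and 13.6 CPM with dox and at 42.1, 41.4, 40.5 and 33.1 CPM after withdrawal. In MUT35, COL7A1 was at 8.09, 8.52, 8.13 and 9.11 CPM with dox and at 17.6, 20.3, 16.6 and 22.8 CPM after withdrawal. Every clone was higher after withdrawal without overlap, and both knockout clones lay below WT8 in each state. COL7A1 rose 2.60-fold in MUT10, 2.27-fold in MUT35 and 1.57-fold in WT8, and the knockout clones exceeded WT8 by a log2 difference of 0.63 (SE 0.13, adjusted p = 0.000619). With the GC trend removed the difference was 0.61 (SE 0.09, adjusted p = 3.44e-06), and the effect itself was 0.68 in MUT10, 0.49 in MUT35 and -0.03 in WT8, so that only in WT8 did the sign turn. In the deposited counts, COL7A1 was the 1 collagen gene called for this difference in each knockout clone alone, at 0.73 in MUT10 (adjusted p = 0.000429) and 0.53 in MUT35 (adjusted p = 0.0262).

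COL18A1 (ENSG00000182871, chromosome 21, 45405165 to 45513720) encodes a collagen of epithelial and vascular basement membranes whose end fragment is endostatin. In WT8, COL18A1 was at 25.2, 30.6, 28.4 and 22.7 CPM with dox and at 49.96, 48.7, 44.3 and 45.2 CPM after withdrawal. In MUT10, COL18A1 was at 23.8, 32.2, 25.2 and 22.1 CPM with dox and at 84.4, 77.0, 79.9 and 53.1 CPM after withdrawal. In MUT35, COL18A1 was at 36.3, 37.0, 31.5 and 33.9 CPM with dox and at 86.0, 86.3, 70.3 and 83.2 CPM after withdrawal. Every clone was higher after withdrawal without overlap, and after withdrawal both knockout clones lay above WT8, the lowest of them being MUT10 replicate 4, whose GC slope lay between the dox states. COL18A1 rose 2.85-fold in MUT10, 2.35-fold in MUT35 and 1.76-fold in WT8, and the knockout clones exceeded WT8 by 0.56 (SE 0.15, adjusted p = 0.00898). With the GC trend removed the difference was 0.53 (SE 0.07, adjusted p = 9.85e-07), and the WT8 effect fell from 0.81 to 0.06. SLC19A1 overlaps COL18A1 on the opposite strand at up to 34.1 CPM, and its own difference was -0.39 (adjusted p = 0.214). In the mean of the knockout clones SLC19A1 rose on withdrawal by 0.54 (adjusted p = 0.000339), the same direction as COL18A1. As the strand setting of the counting is not given, reads from the overlap cannot be told apart.

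The 250 bases before the start sites of COL5A1, COL7A1 and COL18A1 are shown because these genes rose in every clone in the deposited counts and rose further in the mean of the knockout clones. As given above, the WT8 rises of all 3 genes and the MUT35 rise of COL5A1 were not called with the GC trend removed, and MUT35 alone did not differ from WT8 by a call for COL5A1 or, in the deposited counts, for COL18A1 (0.42, adjusted p = 0.136). Sequences are those of RefSeq on GRCh38.p14, given 5′ to 3′ on the strand of the gene, with ACGTG or GCGTG (either strand) in capitals. COL5A1 and COL18A1 each have 2 start sites with an entry, and only the site nearest the start of the canonical transcript was searched. At these sites COL5A1 holds 1 match, read as CACGT, and COL7A1 and COL18A1 hold none. Over all 35116 promoters of the table, 15172 (43.2%) hold a match in the 250 bases before the start. So do 13 of 32 collagen genes with an entry (40.6%), counted at 1 start site per gene, whereas the share over all promoters counts every entry. Of the 12 tested ones, 4 do (33.3%), namely COL12A1, COL4A2, COL5A1 and COL8A2. ACGTG is also part of the E-box CACGTG, and a match is a description of the letters only.
COL5A1, chr9:134641553-134641802, plus strand: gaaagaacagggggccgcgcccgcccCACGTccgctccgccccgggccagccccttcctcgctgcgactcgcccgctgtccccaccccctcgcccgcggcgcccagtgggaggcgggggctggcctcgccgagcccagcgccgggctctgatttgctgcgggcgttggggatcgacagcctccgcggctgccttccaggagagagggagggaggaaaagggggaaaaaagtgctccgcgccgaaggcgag
COL7A1, chr3:48595330-48595579, minus strand: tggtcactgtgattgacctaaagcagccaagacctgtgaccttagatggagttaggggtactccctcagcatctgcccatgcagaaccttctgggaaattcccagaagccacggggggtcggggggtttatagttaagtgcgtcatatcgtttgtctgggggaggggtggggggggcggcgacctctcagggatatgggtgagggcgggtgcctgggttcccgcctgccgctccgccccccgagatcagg
COL18A1, chr21:45404915-45405164, plus strand: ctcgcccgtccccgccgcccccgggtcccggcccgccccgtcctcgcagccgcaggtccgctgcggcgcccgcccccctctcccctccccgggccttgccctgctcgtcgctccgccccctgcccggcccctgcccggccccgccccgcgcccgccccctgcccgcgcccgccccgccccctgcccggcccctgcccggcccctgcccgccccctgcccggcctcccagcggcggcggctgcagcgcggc

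COL8A1 (ENSG00000144810, chromosome 3, 99638475 to 99799226) encodes a chain of the short network collagen type VIII, known from the cornea and from vessel walls. In WT8, COL8A1 was at 72.7, 77.8, 79.8 and 79.8 CPM with dox and at 85.7, 85.3, 84.9 and 87.5 CPM after withdrawal. In MUT10, COL8A1 was at 12.9, 14.05, 14.05 and 12.7 CPM with dox and at 23.8, 23.4, 20.7 and 20.6 CPM after withdrawal. In MUT35, COL8A1 was at 89.1, 85.5, 82.0 and 86.0 CPM with dox and at 85.9, 82.9, 79.0 and 78.6 CPM after withdrawal. MUT10 lay far below both other clones in each state and rose without overlap, whereas the MUT35 states overlapped. COL8A1 was 0.173 times the WT8 level in MUT10 with dox (log2 -2.53, adjusted p = 6.72e-21) and 0.258 times after withdrawal (-1.95, adjusted p = 1.02e-19). The withdrawal effect was 0.72 in MUT10 (SE 0.07), -0.07 in MUT35 (SE 0.05, not called) and 0.14 in WT8 (SE 0.05), and MUT10 differed from MUT35 by 0.79 (SE 0.09, adjusted p = 2.92e-07).

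The partner chain COL8A2 ran the other way. MUT10 held 22, 43, 37 and 45 counts with dox and 34, 48, 29 and 40 after withdrawal, against 0 to 11 in the WT8 libraries and 0 to 2 in the MUT35 libraries. MUT10 lay above every library of the other clones. The ratio of CPM to WT8 was 9.02 with dox (147 against 12 counts, exact 95% interval 5.01 to 17.9, counting error only) and 6.49 after withdrawal (151 against 29 counts, 4.34 to 10.0). As COL8A2 passed the filter through MUT10, these intervals too describe the difference and do not test it. No withdrawal effect of COL8A2 was called in any clone.

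COL12A1 (ENSG00000111799, chromosome 6, 75084326 to 75206267) encodes another collagen that lies along fibrils. In WT8, COL12A1 was at 9.48, 8.83, 7.29 and 8.82 CPM with dox and at 6.80, 11.4, 8.80 and 7.88 CPM after withdrawal. In MUT10, COL12A1 was at 4.07, 2.94, 2.91 and 3.35 CPM with dox and at 2.998, 1.98, 3.30 and 1.45 CPM after withdrawal. In MUT35, COL12A1 was at 10.5, 11.1, 14.2 and 12.1 CPM with dox and at 13.5, 9.67, 9.97 and 12.1 CPM after withdrawal. The dox states overlapped in every clone, and MUT10 lay below the other clones in both states. MUT10 was at 0.385 times the WT8 level with dox (log2 -1.38, adjusted p = 2.29e-06) and 0.275 times after withdrawal (-1.86, adjusted p = 1.23e-08), and MUT35 at 1.40 and 1.30 times (adjusted p = 0.0171 and 0.0443). No withdrawal effect was called, at 0.02 in WT8, -0.47 in MUT10 (adjusted p = 0.0814) and -0.08 in MUT35.

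**Figure D5:**
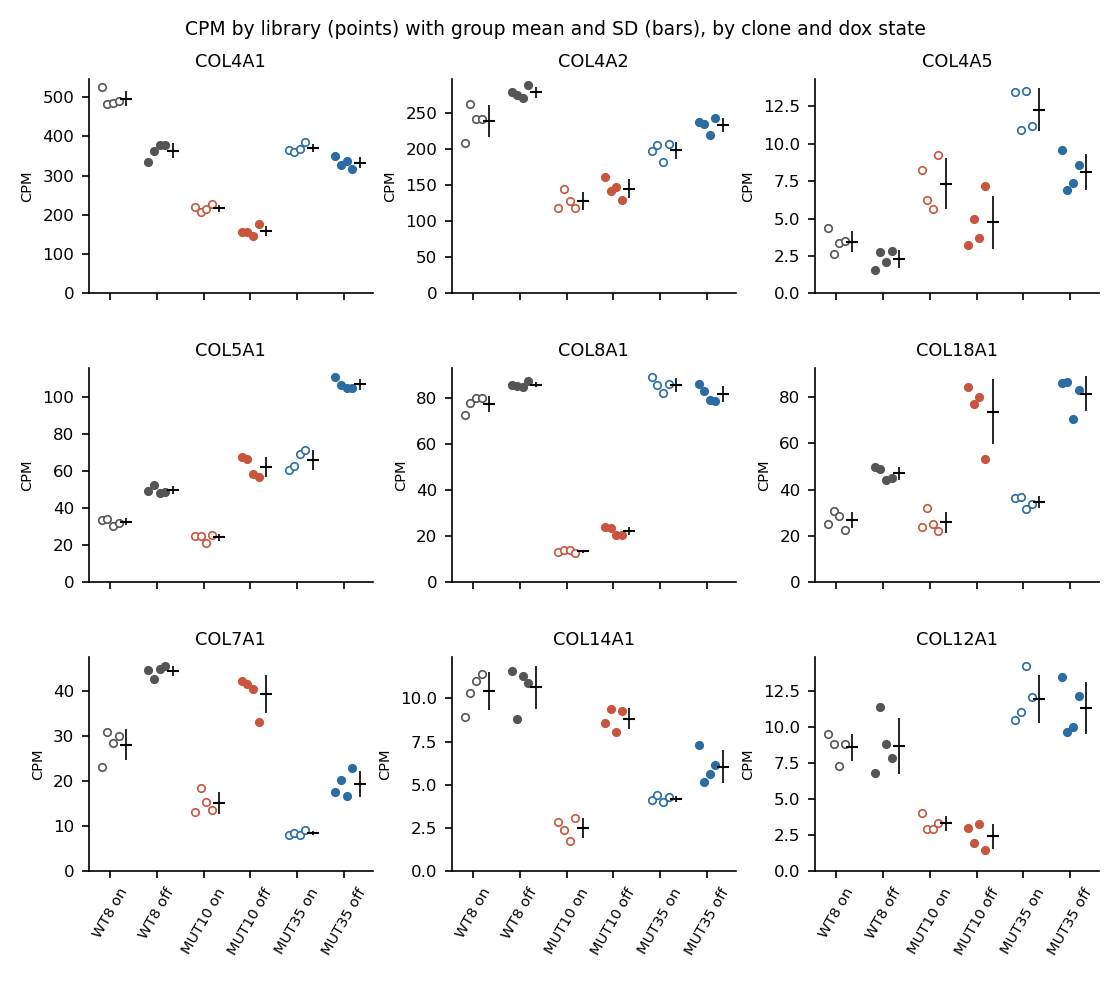
CPM (vertical axes, from 0) of COL4A1, COL4A2, COL4A5, COL5A1, COL8A1, COL18A1, COL7A1, COL14A1 and COL12A1 for the clones with dox (open points) and after withdrawal (filled points), placed along the horizontal axes, with the mean and SD of each group of 4 libraries. COL14A1 rises on withdrawal in MUT10 and MUT35 and overlaps between the states in WT8, and COL8A1 and COL12A1 lie lowest in MUT10.

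Type VI collagen rose in each clone in the deposited counts. COL6A1 rose by 0.63 in WT8, 0.70 in MUT10 and 0.87 in MUT35 on the log2 scale, and COL6A2 by 0.71, 0.97 and 1.00, all without overlap of the states. After GC correction COL6A1 was at -0.01, 0.03 and 0.22 and COL6A2 at -0.02, 0.22 and 0.25, so the WT8 rises were gone with a change of sign. The difference between genotypes was 0.16 for COL6A1 (adjusted p = 0.342) and 0.27 for COL6A2 (SE 0.15, adjusted p = 0.203). For COL6A2 it was called with the GC trend removed, at 0.26 (SE 0.07, adjusted p = 0.00374), and without the MUT10 libraries of intermediate GC slope, at 0.37 (adjusted p = 0.00777). Without these libraries COL6A1 was called too, at 0.22 (adjusted p = 0.0236).

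Fewer reads lay behind the last pair. In WT8, COL22A1, a collagen of tissue junctions, averaged 1.90 ± 0.758 CPM (SD, n = 4) in dox, against 2.44 ± 0.120 CPM after withdrawal. It was at 1.01 ± 0.264 and 2.59 ± 0.488 CPM in MUT10 and at 2.31 ± 0.225 and 4.10 ± 1.32 CPM in MUT35, and the states did not overlap in the knockout clones. The rise of COL22A1 was called in MUT10 (1.31) and MUT35 (0.81), but with the GC trend removed the MUT35 value was 0.33 (adjusted p = 0.202), and the MUT10 value of 0.83 became 0.53 (adjusted p = 0.128) without the 2 MUT10 libraries of intermediate GC slope. Its difference from WT8 was 0.78 (SE 0.31, adjusted p = 0.0751, not called). COL16A1, which associates with fibrils and basement membranes, was at 1.56 ± 0.515 and 2.32 ± 0.246 CPM in WT8, 1.37 ± 0.542 and 0.863 ± 0.307 in MUT10, and 1.28 ± 0.357 and 1.02 ± 0.337 in MUT35. In the deposited counts no withdrawal effect of COL16A1 was called in a single clone, at 0.57 in WT8, -0.69 in MUT10 and -0.30 in MUT35. After GC correction COL16A1 was called lower in MUT10 (-1.30, adjusted p = 0.00173) and MUT35 (-0.90, adjusted p = 0.0289), and was at -0.02 in WT8. The difference between knockout clones and WT8 was -1.07 (SE 0.37, adjusted p = 0.0392). That call was lost without the MUT10 libraries of intermediate GC slope (adjusted p = 0.0553) and in 13 of 24 fits that left out 1 library, up to adjusted p = 0.105 without WT8 dox on replicate 2. These 13 left out dox on replicates 1, 2 and 3 or dox off replicates 1, 3 and 4 of WT8, dox on replicates 3 and 4 or dox off replicates 1 and 4 of MUT10, and dox on replicate 1 or dox off replicates 1 and 2 of MUT35.

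Each knockout clone was also set against WT8 alone, a comparison added after seeing the data, which shares the WT8 libraries between the clones. MUT10 alone gave 8 called collagen genes for the difference in withdrawal effect, against 28.6% of all genes, and MUT35 alone gave 2, against 11.1%. COL7A1 was called in both, COL14A1, COL16A1, COL18A1, COL1A1, COL22A1, COL5A1 and COL8A1 in MUT10, and COL4A1 in MUT35. After GC correction, 9 were called in MUT10 (38.9% of all genes) and 6 in MUT35 (19.1%). COL14A1, COL18A1, COL6A2 and COL7A1 were then called higher in both clones, and COL8A1 in opposite directions.

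At a fixed dox state, the clones differed widely in collagen expression. After withdrawal, the mean of MUT10 and MUT35 differed from WT8 in 14 of 17 genes, 5 higher and 9 lower, against 27.6% and 28.2% of all genes (together 55.8%). With dox, when the transgene supplied VHL in every clone, 12 differed, 3 higher and 9 lower, against 20.6% and 22.6% (together 43.2%). These counts include COL8A2 and COL11A1 wherever they were called, although a difference between clones was needed for them to be tested. Several of the other genes differed between the clones. After withdrawal MUT10 alone gave 10 calls (52.5% of all genes) and MUT35 alone 16 (54.9%), and COL1A1 and COL12A1 were called in opposite directions. COL18A1, COL4A5 and COL5A1 were called higher in both and COL16A1, COL4A1 and COL4A2 lower in both. On removal of the GC trend, COL14A1 and COL7A1 were called lower in both and COL4A1 was called in MUT10 and not in MUT35. With dox, MUT10 alone gave 10 calls (41.1%) and MUT35 alone 15 (46%), and COL12A1, COL5A1 and COL8A1 were called in opposite directions. COL4A5 was called higher in both clones and COL14A1, COL4A1, COL4A2 and COL7A1 lower. COL5A1 shows how a mean over the clones can hide this, at -0.43 in MUT10, 1.02 in MUT35 and 0.29 in their mean. COL6A1, at 0.02 in MUT10 and -1.02 in MUT35 with dox, is a further case, its mean of -0.50 being called.

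Of 57 genes that fold, export, process, bind or degrade collagen, 49 were tested. In the mean of MUT10 and MUT35, 27 of them rose and 9 fell on withdrawal, against 38.1% and 35.5% of all genes. The withdrawal effect was called larger than in WT8 in 11 and smaller in 6. After GC correction these were 25 and 10 for the mean, against 34.2% and 33% of all genes, and 14 and 7 for the difference. The background shares for the difference were 12.1% higher and 11.4% lower, and 15.8% and 18% with the GC trend removed.

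Of the 18 folding and modification genes, 5 were called higher and 1 lower for the difference between genotypes, against 12.1% and 11.4% of all genes. P4HA2, a catalytic subunit of the collagen prolyl hydroxylase, changed by 1.20 in the knockout clones and -0.10 in WT8, a difference of 1.30 (adjusted p = 7.84e-13). P4HB, the other subunit of that enzyme and a disulfide isomerase, differed by 0.57 (adjusted p = 0.000289). P3H2, which hydroxylates proline at another position, fell by 0.67 in the knockout clones, and its difference was -0.52 (adjusted p = 9.16e-08). PLOD2, a lysyl hydroxylase for cross-linking sites, and P4HA1, also a prolyl hydroxylase subunit, were picked after their values were seen. PLOD2 changed by 0.51 against -0.60 in WT8, a difference of 1.11 (adjusted p = 6.95e-10), and P4HA1 by 0.26 against -0.67, a difference of 0.93 (adjusted p = 4.40e-08). FKBP14, a folding enzyme of the endoplasmic reticulum, fell by 0.52, and its value was -0.09 with the GC trend removed (not called).

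Of the 11 tested genes of procollagen processing and cross-linking, 3 were called higher and 2 lower for the difference, against the same 12.1% and 11.4%. LOX, the founding lysyl oxidase, rose by 1.83 in the knockout clones and changed by -0.33 in WT8, a difference of 2.17 (adjusted p = 1.38e-17). LOXL2 differed by 0.82 (adjusted p = 2.19e-09) in the same direction. LOXL1, KLHL12 and MMP14 were picked after their values were seen, and LOXL1 differed by 0.49 (adjusted p = 0.00184). LOXL4 ran the other way, at -1.27 (adjusted p = 0.00263), as did the procollagen protease ADAMTS3, at -0.28 (adjusted p = 0.0335). Of the 8 export and transcription genes, 1 was called higher and 1 lower (12.1% and 11.4% of all genes). KLHL12, a ubiquitin ligase adaptor for large transport vesicles, and CREB3L1, a transcription factor for collagen genes, were called for the difference, at 0.32 (adjusted p = 0.00468) and -0.74 (adjusted p = 1.15e-05). TRAM2 and SEC24D rose by 0.18 and 0.16 in the knockout clones, and SEC23A fell by 0.29, which turned to 0.10 with the GC trend removed.

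Of the 5 collagen receptors tested, 1 was called higher (12.1% of all genes). ITGB1, the beta chain of the collagen-binding integrins, was called for the difference, at 0.32 (adjusted p = 0.0189). DDR1, a receptor tyrosine kinase that binds collagen, rose by 0.97 in the knockout clones and 0.88 in WT8. MRC2, an uptake receptor, changed by 0.51 in the knockout clones and ITGA1 by -0.43, and neither was called with the GC trend removed. Of the 7 degradation genes, 1 was called higher and 2 lower (12.1% and 11.4% of all genes). CTSK, a lysosomal collagenase, was called higher for the difference, at 1.36 (adjusted p = 0.0187), and MMP13 and MMP14, both collagenases, lower, at -1.06 (adjusted p = 3.46e-07) and -0.35 (adjusted p = 0.00316). MMP13 fell in the knockout clones by 2.27 on the log2 scale. PEPD, which recycles proline from collagen fragments, changed by 0.40, and by -0.02 with the GC trend removed. The genes named for their difference between genotypes were called in the same direction with the GC trend removed.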

How the data were processed

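RNA was sequenced from 24 libraries of 3 HK2 clones in 2 dox states. According to the study's methods, the authors mapped reads to hg38 and counted them with RSEM and Bowtie2 (versions and annotation not given in the sources used here), and the deposited values are RSEM expected counts per gene symbol, not scaled to library size. The labels and the methods name different library kits, the labels give lung as the tissue of a proximal tubule line, some labels call dox-treated knockout clones wild type, and the design text of the series lists WT8 off dox with the knockouts. Clones were taken as the study's results section describes them, with dox read from the sample titles.

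Values were rounded to integers, normalised by TMM and tested in edgeR 4.0.16 under R 4.3.3 (quasi-likelihood test, 6 group means, Benjamini-Hochberg threshold 0.05) for the 13900 genes that passed edgeR's low-count filter. The common biological coefficient of variation was 8.37%. The test was checked on simulated counts. A further fit removed each library's trend of log2 CPM with transcript GC content (spline with 4 degrees of freedom, 13369 genes, 96.2%). CPM per kilobase used the length of the canonical transcript in GENCODE 44. Coordinates are from GENCODE 44 on GRCh38, and plots were made in Python 3.11.15 with matplotlib 3.10.9. Ratios of chains were tested by exact permutation in scipy 1.17.1, and ratios of low counts have exact 95% intervals, which like the floor of 3 counts cover counting error only.

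Members, lists and comparisons were chosen with earlier results of these data known. Every collagen gene that was tested may be named. Values of every library are given for up to 4 rises and 4 falls with the largest difference in withdrawal effect between the knockout clones and WT8, up to 3 higher and 3 lower after withdrawal, up to 2 between MUT10 and MUT35 (all called, mean count at least 50), and for pairs of neighbouring type IV genes that were tested. Of the other lists, up to 2 members per direction with the smallest adjusted p in the knockout clones are named.

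Alternatives were DESeq2 1.42.0, limma-voom (limma 3.58.1), no scaling beyond library size, RLE scaling, a minimum of 10 counts per library, no filter, a replicate block, separate fits of each clone, the GC trend removed, and each library left out. No pair of replicates agreed within sampling noise (chi-square per degree of freedom 1.89 to 27.8 over 36 pairs).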

Additional observations from a re-analysis of the deposited data

Results flagged for a closer look

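COL4A1 in WT8 dox on replicate 1 stood apart from the other replicates of its group by Dixon's test, at 527 CPM against 484 to 490.1 CPM. This was 1 of 54 groups tested over the 9 collagen genes given library by library, and chance flags about 1 in 20 groups.

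The withdrawal effect of the knockout clones differed from that of WT8 by 1.14 for COL14A1, 0.56 for COL18A1, 0.43 for COL5A1, 0.63 for COL7A1 and -1.07 for COL16A1 on the log2 scale, by the test of the difference itself in edgeR. The COL16A1 call was lost in 13 of 24 fits that left out 1 library. The withdrawal effect of MUT10 differed from that of MUT35 by 1.28 for COL14A1, -0.68 for COL1A1, -0.30 for COL4A1, 0.68 for COL5A1 and 0.79 for COL8A1, where 11.1% of all genes were called. The difference for COL4A1 was not called with the GC trend removed (-0.31, adjusted p = 0.0534).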

How the results depend on the processing

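With the GC trend removed, the collagen genes called in WT8 went from 10 to 4 (5 with the replicate block added, and 5 without the 2 MUT10 libraries of intermediate GC slope, a choice made after seeing the data). The calls for the knockout clones minus WT8 went from 5 to 8 without these libraries and the GC trend, and to 8 for MUT10 alone, 2 for MUT35 alone and 9 for MUT10 alone with the GC trend removed, also chosen after seeing the data. Leaving out each library in turn gave 8 to 11 calls in WT8, 10 to 13 in MUT10, 11 to 12 in MUT35, 13 to 14 in their mean, 4 to 6 for the difference from WT8, 5 to 6 between MUT10 and MUT35, 14 to 15 after withdrawal and 9 to 12 with dox. The cause of these changes was not tested. Directions that turned under removal of the GC trend (then with the block, then without the 2 libraries) were, in WT8, COL1A1 at -0.0102, -0.0048 and -0.0080, COL4A2 at -0.36, -0.36 and -0.36, COL6A1 at -0.0095, -0.0106 and -0.0088, COL6A2 at -0.0176, -0.0148 and -0.0167, and COL7A1 at -0.0281, -0.0182 and -0.0277. COL4A2 turned to -0.41, -0.41 and -0.49 in MUT10, -0.35, -0.35 and -0.35 in MUT35 and -0.38, -0.38 and -0.42 in their mean, and COL1A1 in that mean to -0.32, -0.31 and -0.39. Against the mean of both knockout clones, single clones turned (as counted, then with the GC trend removed) after withdrawal in MUT10 for COL11A1 (-0.46, -0.45), COL1A1 (-0.43, -0.45), COL6A1 (0.0894, 0.0873), COL8A2 (2.65, 2.65) and, with the trend removed, COL6A2 (0.30), and in MUT35 for COL12A1 (0.38, 0.38). With dox they turned in MUT10 for COL5A1 (-0.43, -0.42), COL6A1 (0.0191, 0.0428), COL6A2 (0.0157, 0.0571) and, with the trend removed, COL27A1 (0.0052), and in MUT35 for COL12A1 (0.48, 0.48), COL8A1 (0.14, 0.13) and COL8A2 (-2.04, -2.05). For the withdrawal effect, COL8A1 in MUT35 alone was at -0.21 with and without the trend, against 0.18 in the mean of both clones, and was called only with the trend removed.

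Of 136 values over the 17 genes, 136 kept their direction and call with the replicate block, with RLE factors and by DESeq2, 135 by limma-voom, 134 without a filter and 133 with library size alone. Whether replicate numbers pair the libraries was not settled. Same-numbered libraries deviated with r from -0.44 to 0.68 over 12 pairs. Out of 4 candidates for each library, 12 of 24 correlated best with their own number. Leaving out 1 library kept 3193 of 3264 values. The filter on low counts left 27 of 44 collagen genes untested, and whether depth or absent expression lay behind this was not tested.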
